A study of Mus musculus with 8 samples.

Results

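Chemokine receptors and a closely related oxysterol receptor were followed across 4 populations of mouse dendritic cell progenitors. The 9 receptors were Ccr1, Ccr2, Ccr7, Ccr9, Cx3cr1, Cxcr2, Cxcr4, Xcr1 and Gpr183, out of 19938 genes measured. They were chosen by name, as receptors that guide the movement of progenitors, dendritic cells and the cell types that can accompany them in marrow, by a rule that uses no measured value, although earlier results of these data were known when it was made. Each was read through a probe set annotated to that symbol alone, and all 9 had 1 such probe set.

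The cells came from mouse bone marrow of pelvis, tibia and femur. A pair of sorted populations was compared, CDP, the common dendritic cell progenitor of the field, and pre-CD8, a progenitor that the labels name without defining it. Each was divided into cells negative (Id2-GFP-) and positive (Id2-GFP+) for a green reporter of Id2, a transcriptional regulator needed by several innate lymphocyte and dendritic lineages, which gives 4 groups of 2 arrays. Titles, sources and descriptions place every sample in the Id2-IRES-GFP reporter, but the genotype field gives heterozygous Id2-IRES-GFP for the 2 Id2-GFP- CDP samples and heterozygous Zbtb46-GFP for the other 6, so the reporter carried by those 6 is uncertain. The groups used here follow the titles. If the genotype field holds, every comparison with Id2-GFP- CDP also differs in genotype, and the part of each cannot be told apart. The same holds for any difference of the reporter effect between CDP and pre-CD8. Comparisons among the other groups would share a genotype. All animals carried a reporter allele, no unmodified strain was included, and ages, sort gates and pooling are not given in the sources used here.

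Chemokine receptors are membrane proteins with a bundle of helices crossing the membrane, and they signal through inhibitory G proteins. Binding of a secreted chemokine leads to G protein release, directed migration, and then phosphorylation by G protein-coupled receptor kinases and uptake with arrestins. In marrow, Cxcr4 holds progenitors near stromal cells that make its ligand Cxcl12, whereas Ccr2 lets monocytes and some dendritic progenitors leave the marrow. Gpr183 senses oxidised cholesterol, chiefly an oxysterol made by Ch25h and Cyp7b1 and degraded through Hsd3b7, and places dendritic cells and B cells within lymphoid tissue.

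Promoter windows of 4 receptors are shown for their levels in a single group: Ccr2, Gpr183 and Cx3cr1 were lowest in Id2-GFP- pre-CD8, where Ccr9 was highest. RefSeq (GRCm38.p6) start sites were matched for 8 of the 9 receptors, Ccr7 being the other one. Each line holds the 250 bases before the start, 5′ to 3′ on the strand of the gene, at chr9:124101933-124102182 (plus strand) for Ccr2, chr14:121965194-121965443 (minus) for Gpr183, chr9:120068297-120068546 (minus) for Cx3cr1 and chr9:123766961-123767210 (plus) for Ccr9.
Ccr2: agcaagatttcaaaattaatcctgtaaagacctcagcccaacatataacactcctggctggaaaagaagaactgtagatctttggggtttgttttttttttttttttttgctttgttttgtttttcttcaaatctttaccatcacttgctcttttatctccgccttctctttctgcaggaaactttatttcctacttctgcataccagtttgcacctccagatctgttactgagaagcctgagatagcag
Gpr183: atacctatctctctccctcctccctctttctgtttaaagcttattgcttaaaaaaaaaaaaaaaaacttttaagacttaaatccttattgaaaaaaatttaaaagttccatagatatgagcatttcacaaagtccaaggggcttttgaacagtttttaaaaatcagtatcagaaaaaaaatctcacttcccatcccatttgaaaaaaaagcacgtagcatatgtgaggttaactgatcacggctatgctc
Cx3cr1: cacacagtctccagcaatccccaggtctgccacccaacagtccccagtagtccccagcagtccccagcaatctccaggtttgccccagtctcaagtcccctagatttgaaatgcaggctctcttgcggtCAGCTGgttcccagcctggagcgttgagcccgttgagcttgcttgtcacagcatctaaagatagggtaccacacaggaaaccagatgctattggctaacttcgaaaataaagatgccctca
Ccr9: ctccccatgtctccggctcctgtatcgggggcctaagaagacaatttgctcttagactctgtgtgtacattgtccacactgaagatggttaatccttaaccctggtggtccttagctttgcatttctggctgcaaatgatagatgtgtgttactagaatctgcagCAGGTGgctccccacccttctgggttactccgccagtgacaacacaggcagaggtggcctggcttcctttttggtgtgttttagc
Capitals mark the E-box letters CAGGTG (on either strand) and CAGCTG (its own reverse complement). E-boxes are the binding letters of E proteins, the helix-loop-helix factors whose DNA binding Id2 blocks. CAGGTG stood in the Ccr9 window, 85 to 80 bases before the start, and in the Cxcr2 window, 127 to 122 bases before it. CAGCTG stood in the Cx3cr1 window, 121 to 116 bases before the start. The Ccr2 and Gpr183 windows held neither, and the other windows that were matched, those of Ccr1, Cxcr4 and Xcr1, held neither. Of 32851 mouse promoter windows of this length, 27.7% held at least 1 of them, 17.2% CAGGTG and 13% CAGCTG, so a match is common and describes only the letters of the window.

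Values are log2 of the deposited RMA intensity, and a difference of 1 is a doubling. The arrays fell into 4 brighter and 4 dimmer ones, with mean intensities of 461 to 478 and 402 to 414, and each group held 1 of each. Differences are therefore also given within the brighter and the dimmer arrays, and from a fit with the array set as a block. The split was made at the widest gap in mean intensity of these same values, and not from a labelled batch. That block removes spread found in the data themselves, so its calls are no independent support. Id2 itself was at 5.14 and 6.30 on the Id2-GFP- CDP arrays, 9.26 and 9.77 in Id2-GFP+ CDP, 5.90 and 7.18 in Id2-GFP- pre-CD8 and 10.69 and 10.99 in Id2-GFP+ pre-CD8, so the arrays of the positive groups were above those of the negative groups. Of the progenitor genes, Flt3, the receptor for the dendritic growth factor Flt3L, lay between 10.73 and 12.58, and Kit, the stem cell factor receptor, between 9.73 and 11.68. Of 12 early progenitor genes measured, 9 fell and 1 rose with the reporter in pre-CD8 (median difference -1.52), with 3 to 10 calls when single arrays were left out: 4 and 5 without Id2-GFP- pre-CD8 replicates 1 and 2, and 6 and 3 without Id2-GFP+ pre-CD8 replicates 1 and 2. None passed in CDP, where 5 had an unadjusted p below 0.05. With the reporter in pre-CD8, 3.57% of all genes rose and 2.70% fell. Of 9 genes shared by conventional dendritic cells, 8 rose with the reporter in pre-CD8 (median 3.34), and 1, Flt3, fell. The mean of that list per array was 8.44 to 8.67 in Id2-GFP- pre-CD8 and 10.79 to 11.33 in Id2-GFP+ pre-CD8, and 7.52 to 7.71 and 9.38 to 9.77 in the negative and positive CDP groups. The part of these shifts in the receptor levels was not tested. In these sorted bulk samples fewer cells of a type and less RNA per cell cannot be told apart. The sources do not say whether the replicates are separate mice, and the p-values then describe array-to-array spread that may be purely technical.

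**Figure D1:**
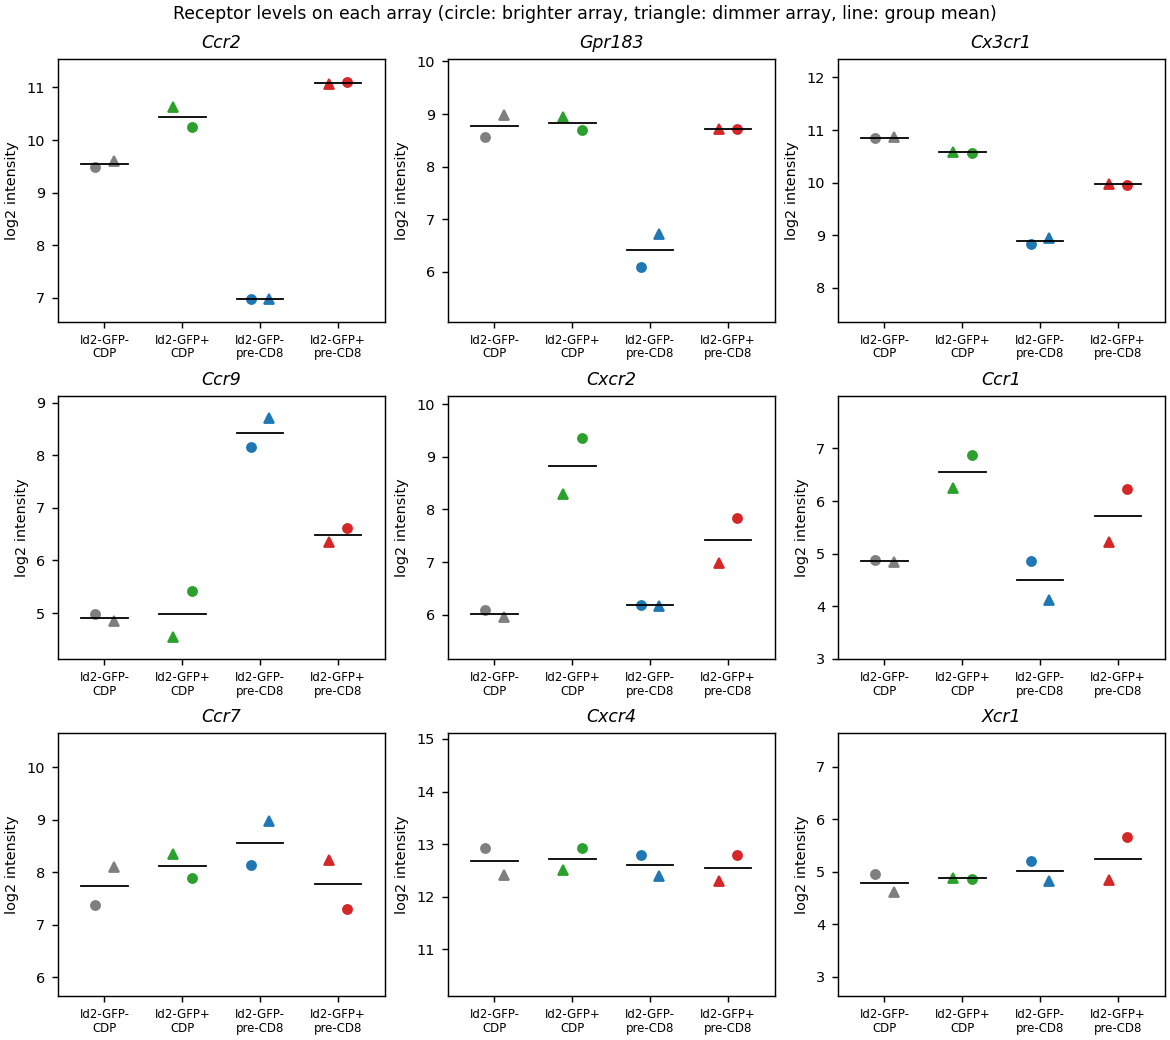
Log2 intensity of the 9 receptors on every array (circles for brighter and triangles for dimmer arrays; vertical axes of equal span) in the 4 groups (horizontal axis), with lines at the group means. Ccr2, Gpr183 and Cx3cr1 are lowest and Ccr9 highest in Id2-GFP- pre-CD8, and Cxcr4 stays between 12.29 and 12.93.

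Of the 2 reporter contrasts, that of pre-CD8 called more receptors. There 3 of 9 receptors were higher in Id2-GFP+ cells (Ccr2, Gpr183 and Cx3cr1) and 1 was lower (Ccr9), where 6.26% of all genes passed the test, 3.57% upward and 2.70% downward. The test was limma with Benjamini-Hochberg adjustment over all genes at an adjusted p of 0.05. In CDP the same reporter contrast called 1 of 9, Cxcr2, which was higher in Id2-GFP+ cells, against 0.597% of all genes, every one of them upward. The median difference of the 9 receptors was 1.09 in pre-CD8 and 0.10 in CDP, beside medians of -0.01 and -0.00 over all genes. With the array set as a block, 7 of 9 were called in pre-CD8 and 3 of 9 in CDP, where 24.2% and 7.85% of all genes were.

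Ccr2, the receptor for Ccl2 that drives monocyte exit from marrow, had the widest span of group means, 4.11. It measured 6.97 and 6.98 on the Id2-GFP- pre-CD8 arrays and 11.06 and 11.11 on the Id2-GFP+ pre-CD8 arrays. On the CDP arrays it measured 9.49 and 9.61 in Id2-GFP- and 10.63 and 10.25 in Id2-GFP+ cells. No pair of groups overlapped: Id2-GFP+ pre-CD8 was highest, followed by Id2-GFP+ CDP and Id2-GFP- CDP, and Id2-GFP- pre-CD8 lay far below the rest. In pre-CD8 the reporter difference was 4.11 ± 0.20 (SE, 2 arrays per group), or 17.3-fold, with an adjusted p of 0.000161, and it was 4.14 in the brighter and 4.08 in the dimmer arrays. In CDP it was 0.89 ± 0.20 with an adjusted p of 0.186, which did not pass, although it was 0.76 and 1.02 within the array sets and had an adjusted p of 0.00185 with the array set as a block.

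The reporter difference of Ccr2 was larger in pre-CD8 than in CDP. The interaction was 3.22 ± 0.28 on the log2 scale (adjusted p = 0.0135), and Ccr2 was the only one of the 9 receptors to pass it, where 0.145% of all genes did (0.0351% upward, 0.110% downward). This call rested on the full set of arrays: without any one array other than Id2-GFP+ CDP replicate 1 the adjusted p lay between 0.0514 and 0.0808, while the estimate stayed between 3.03 and 3.41 over all 8 such fits. With the array set as a block it was 1.41e-05. Gpr183 (2.26 ± 0.37, adjusted p = 0.0879), Cx3cr1 (1.36 ± 0.24, 0.103) and Ccr9 (-2.01 ± 0.43, 0.174) had interaction estimates that did not pass. For each of these 3 the interaction passed with the array set as a block, at adjusted p-values of 0.000224, 0.000214 and 0.00657. That block called 6 of 9 receptors in the interaction, with 7.48% of all genes.

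Gpr183, the oxysterol receptor, separated Id2-GFP- pre-CD8 from the other 3 groups. It measured 6.10 and 6.72 there, against 8.71 and 8.72 in the positive pre-CD8 cells, 8.56 and 8.99 in Id2-GFP- CDP, and 8.95 and 8.70 in Id2-GFP+ CDP. The latter 3 groups overlapped, with differences between them of 0.05 (Id2-GFP+ minus Id2-GFP- CDP), -0.06 and -0.11 (Id2-GFP+ pre-CD8 minus Id2-GFP- and minus Id2-GFP+ CDP). The reporter difference in pre-CD8 was 2.31 ± 0.27 (adjusted p = 0.00225), that is 4.95-fold, and 2.62 and 2.00 within the brighter and dimmer arrays. In CDP it was 0.05 ± 0.27, with a 95% interval from -0.56 to 0.66.

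Cx3cr1, the fractalkine receptor carried by macrophage and dendritic progenitors and by monocytes, ran in a different order. It measured 10.84 and 10.87 in Id2-GFP- CDP, 10.58 and 10.57 in Id2-GFP+ CDP, 9.98 and 9.96 in Id2-GFP+ pre-CD8 and 8.83 and 8.95 in Id2-GFP- pre-CD8. The 4 groups did not overlap, and both CDP groups were above both pre-CD8 groups. The reporter difference in pre-CD8 was 1.09 ± 0.17 (adjusted p = 0.00774), with 1.13 and 1.04 within the array sets. Its adjusted p was 0.0655 without Id2-GFP- pre-CD8 replicate 1, 0.0512 without Id2-GFP+ pre-CD8 replicate 1 and 0.0649 without Id2-GFP+ pre-CD8 replicate 2. In CDP the difference ran the other way, -0.28 ± 0.17, and did not pass (adjusted p = 1.0).

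Monocyte and macrophage genes were on average lowest in Id2-GFP- pre-CD8, as these 3 receptors were, but ran in a different order elsewhere. Genes of type 2 conventional dendritic cells (cDC2) were also lowest there. The mean of 8 such genes was 6.6 or lower on those arrays and 6.89 or higher on the others. Of 12 monocyte and macrophage genes measured, 5 fell from Id2-GFP- CDP to Id2-GFP- pre-CD8 and none rose, with 2 calls without either Id2-GFP- CDP array and 3 without either Id2-GFP- pre-CD8 array. With the reporter in pre-CD8, 3 rose and 1 fell, with 2 calls without any one Id2-GFP- CDP or pre-CD8 array. Of all genes, 0.592% fell from Id2-GFP- CDP to Id2-GFP- pre-CD8. With the reporter in pre-CD8, 3.57% of all genes rose and 2.70% fell. With the reporter in CDP, 2 genes of this list rose and none fell, where 0.597% of all genes rose. None of the 3 receptors passed there, at 0.89 for Ccr2, 0.05 for Gpr183 and -0.28 for Cx3cr1. Ms4a6c, a membrane protein of myeloid cells, fell by 1.91 from Id2-GFP- CDP to Id2-GFP- pre-CD8 (adjusted p = 0.00117). In pre-CD8 it was 2.02 higher with the reporter than without it (adjusted p = 0.000453). The mean of the list on single arrays was 7.78 to 7.95 in Id2-GFP- CDP, 8.20 to 8.73 in Id2-GFP+ CDP, 6.60 to 6.86 in Id2-GFP- pre-CD8 and 7.40 to 7.54 in Id2-GFP+ pre-CD8. The list mean was highest in Id2-GFP+ CDP, Ccr2 in Id2-GFP+ pre-CD8 and Cx3cr1 in Id2-GFP- CDP, while Gpr183 overlapped in these 3 groups. The part of monocytes, macrophages or cDC2 in the levels of Ccr2, Gpr183 and Cx3cr1 was not tested. Csf1r, the receptor for the macrophage growth factor M-CSF that is used to sort CDP, is in the monocyte and macrophage list. It did not follow Ccr2. It was lower in pre-CD8 with the reporter than without it, by -1.09 (adjusted p = 0.0274), a call lost without any array outside Id2-GFP+ CDP.

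Ccr9, the receptor for Ccl25 that directs early lymphoid progenitors to the thymus and marks plasmacytoid dendritic cells, showed the reverse order. It measured 8.15 and 8.71 in Id2-GFP- pre-CD8 and 6.36 and 6.62 in Id2-GFP+ pre-CD8. The CDP arrays were lower, at 4.99 and 4.84 in Id2-GFP- and 4.54 and 5.42 in Id2-GFP+ cells. The 2 pre-CD8 groups did not overlap each other or either CDP group, and the 2 CDP groups overlapped. Within pre-CD8 the reporter difference was -1.94 ± 0.31 (adjusted p = 0.00812), and -1.53 and -2.35 within the brighter and dimmer arrays. In CDP it was 0.06 ± 0.31, with an interval from -0.64 to 0.77.

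The mean of the B lineage genes was highest in Id2-GFP- pre-CD8, where Ccr9 was also highest. In Id2-GFP+ pre-CD8 the values of the list and of Ccr9 differed, but the Ccr9 call there was near the threshold. Against Id2-GFP- CDP, Ccr9 was 1.57 higher (adjusted p = 0.0481 in limma, and 0.057 after quantile normalization), and it was dim in CDP. No B lineage gene was called in that comparison, and their median difference was -0.23. Of 13 measured, 6 rose from Id2-GFP- CDP to Id2-GFP- pre-CD8, none fell and 7 did not pass. In that comparison 1.03% of all genes rose and 0.592% fell. In pre-CD8, 7 were lower with the reporter than without it, none was higher and 6 did not pass, where 2.70% of all genes were lower. Rag1, a subunit of the antigen receptor recombinase, rose by 4.08 between the first pair and was -3.91 in the second (adjusted p = 0.00126 and 0.000711). Dntt, the polymerase that adds bases at recombination joints, was 3.86 and -4.24, and Il7r, the interleukin-7 receptor, 3.64 and -3.91. The Dntt rise had an adjusted p of 0.0575 without Id2-GFP- CDP replicate 1. The list mean was 7.69 to 7.99 on the Id2-GFP- pre-CD8 arrays and 5.69 to 6.09 on the other 6.

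Of 9 plasmacytoid dendritic cell genes measured, 3 were lower in pre-CD8 with the reporter than without it and none higher. The share of all genes lower there was 2.70%. Among the 3 was Ptprcap, a partner of the phosphatase CD45, at -1.58 (adjusted p = 0.00246). Without Id2-GFP- pre-CD8 replicate 2, or without Id2-GFP+ pre-CD8 replicate 1, only 1 gene of this list passed. The list mean was 8.91 to 9.56 in Id2-GFP- pre-CD8, 8.55 to 8.78 in Id2-GFP+ pre-CD8, 8.41 to 9.03 in Id2-GFP- CDP and 8.46 to 8.62 in Id2-GFP+ CDP, and these ranges overlapped between the first group and Id2-GFP- CDP. Their part in the Ccr9 level, and that of the B lineage genes, was not tested.

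Cxcr2, the neutrophil receptor for Cxcl1 and Cxcl2, was highest in Id2-GFP+ CDP. It measured 8.30 and 9.36 there, 6.99 and 7.84 in the positive pre-CD8 cells, 6.08 and 5.95 in Id2-GFP- CDP and 6.19 and 6.16 in Id2-GFP- pre-CD8. Both positive groups lay above both negative groups, and their 2 arrays lay farther apart than those of the negative groups. The reporter difference in CDP was 2.82 ± 0.38 (adjusted p = 0.0207), or 7.05-fold, and 3.29 and 2.35 within the array sets. Leaving out Id2-GFP- CDP replicate 1 ended the call (adjusted p = 0.138), as did leaving out replicate 2 of either CDP group (0.125 for Id2-GFP- and 0.077 for Id2-GFP+). In pre-CD8 the difference was 1.25 ± 0.38 and did not pass (adjusted p = 0.111), although it passed after quantile normalization (0.0137), with the array set as a block (0.00214) and with either Id2-GFP+ CDP array left out (0.0428 and 0.0422).

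Ccr1, a receptor for Ccl3, Ccl5 and Ccl6 on monocytes and neutrophils, was likewise highest in the positive groups. It measured 6.25 and 6.87 in Id2-GFP+ CDP and 5.23 and 6.22 in Id2-GFP+ pre-CD8. It measured 4.87 and 4.85 in Id2-GFP- CDP and 4.86 and 4.12 in Id2-GFP- pre-CD8. The positive groups did not overlap the negative groups. The reporter differences of 1.70 ± 0.37 in CDP and 1.24 ± 0.37 in pre-CD8 did not pass (adjusted p = 0.156 and 0.103). They passed with the array set as a block, at 0.000595 and 0.000733. The CDP difference also passed in a fit of the CDP arrays alone (0.0138), and that of pre-CD8 without Id2-GFP+ pre-CD8 replicate 1 (0.0419).

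The mean of the neutrophil and granule genes was higher in both Id2-GFP+ groups, where Cxcr2 and Ccr1 were also higher, but not every gene followed. From Id2-GFP- CDP to Id2-GFP+ pre-CD8, 9 of these genes rose and 3 fell, where 1.39% and 0.401% of all genes did. With the reporter, 0.597% of all genes rose in CDP, and 3.57% rose and 2.70% fell in pre-CD8. Of 15 neutrophil and granule genes measured, 10 rose and none fell with the reporter in CDP, with a median difference of 3.62. In pre-CD8, 11 rose and 1 fell with the reporter, with a median of 2.37, and 6 to 12 were called when single arrays were left out: 7 without Id2-GFP- pre-CD8 replicate 1, and 6 without replicate 2 of either pre-CD8 group. Ltf, the granule protein lactoferrin, was 4.84 and 2.93 higher in the 2 comparisons (adjusted p = 0.00177 and 0.00431), and S100a8, a subunit of calprotectin, 4.50 and 2.92 (0.000874 and 0.00152). Ly6g, the surface marker of neutrophils, measured 8.65 to 9.54 in Id2-GFP+ CDP and 7.66 to 8.05 in Id2-GFP+ pre-CD8, and 5.26 to 5.57 on the 4 arrays of the negative groups. The list mean per array was 11.15 to 12.04 and 10.25 to 10.70 in the positive groups of CDP and pre-CD8, and 8.29 to 9.21 and 8.65 to 8.86 in the negative ones. The part of neutrophil RNA in the Cxcr2 and Ccr1 levels was not tested.

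**Figure D2:**
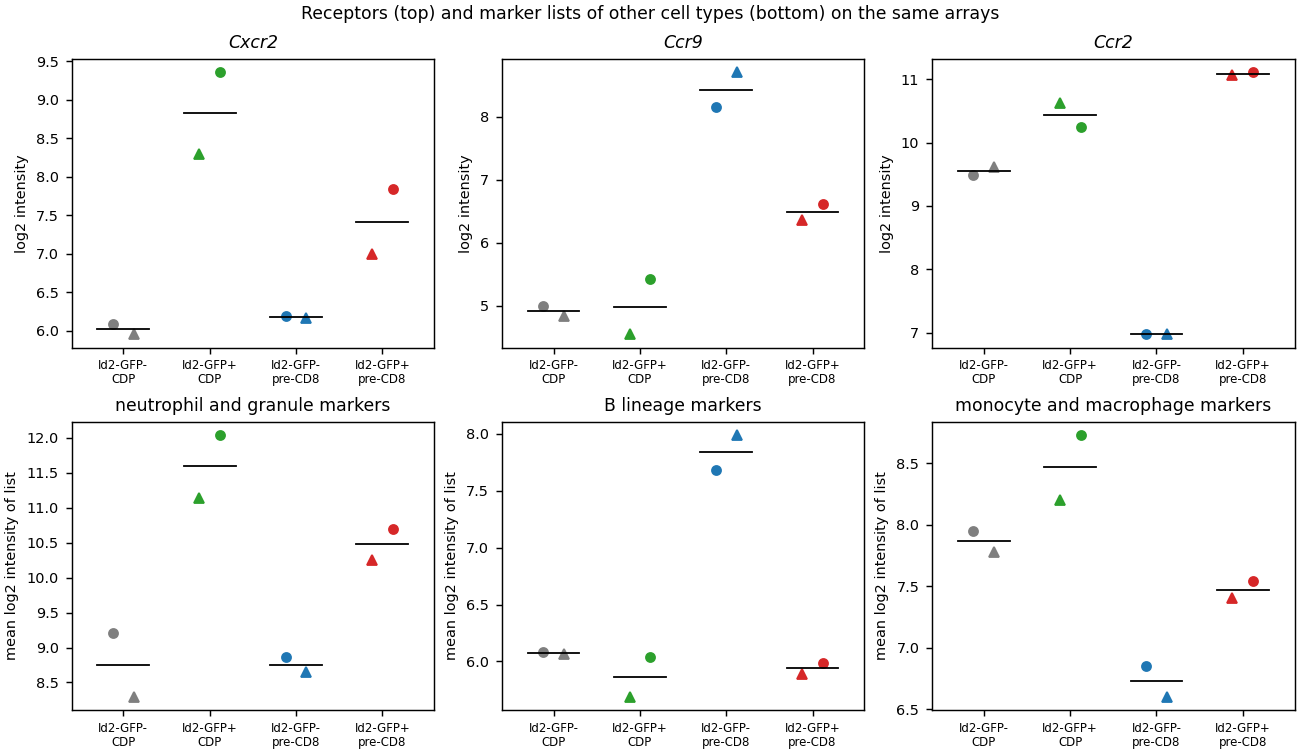
Log2 intensity of Cxcr2, Ccr9 and Ccr2 (top) and mean log2 intensity of a marker list beneath each (bottom) on every array (circles brighter, triangles dimmer arrays) in the 4 groups, with lines at group means. Neutrophil and granule genes lie at 10.25 or higher in both Id2-GFP+ groups and at 9.21 or lower in both Id2-GFP- groups, and B lineage genes are highest in Id2-GFP- pre-CD8.

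Ccr7, which leads mature dendritic cells and lymphocytes to lymph nodes, passed no comparison in the fit over all arrays. It measured 7.37 and 8.10 in Id2-GFP- CDP, 8.35 and 7.89 in Id2-GFP+ CDP, 8.14 and 8.98 in Id2-GFP- pre-CD8 and 8.23 and 7.31 in Id2-GFP+ pre-CD8. The dimmer array of each group was the higher one in all 4 groups, and 5 of the 6 pairs of groups overlapped. The reporter difference in pre-CD8 was -0.79 ± 0.42 (adjusted p = 0.454), with -0.83 and -0.75 within the array sets. With the array set as a block this difference passed (adjusted p = 0.00165), as did the higher level of Id2-GFP- pre-CD8 over Id2-GFP- CDP (0.00251) and the interaction (0.00459).

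Cxcr4, the retention receptor for Cxcl12, varied least. It measured 12.93 and 12.42 in Id2-GFP- CDP, 12.50 and 12.92 in Id2-GFP+ CDP, 12.80 and 12.39 in Id2-GFP- pre-CD8 and 12.29 and 12.80 in Id2-GFP+ pre-CD8. All groups overlapped, and the 2 arrays of a group lay farther apart than any 2 group means. The reporter difference was 0.03 ± 0.26 in CDP and -0.05 ± 0.26 in pre-CD8, with 95% intervals from -0.56 to 0.62 and from -0.64 to 0.54, and changes within those bounds could not be seen with this number of arrays.

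Xcr1, the receptor for Xcl1 on mature type 1 conventional dendritic cells (cDC1), was dim on every array. It measured 4.95 and 4.61 in Id2-GFP- CDP, 4.89 and 4.86 in Id2-GFP+ CDP, 5.20 and 4.82 in Id2-GFP- pre-CD8 and 4.84 and 5.66 in Id2-GFP+ pre-CD8. All groups overlapped, and 1 array, Id2-GFP+ pre-CD8 replicate 2, stood above the others. The reporter difference in pre-CD8 was 0.24 ± 0.27 (interval -0.39 to 0.87), and 0.46 and 0.02 within the brighter and dimmer arrays. RMA compresses dim values, so differences of Xcr1, Ccr1 and the CDP level of Ccr9 may be understated.

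Other cDC1 genes moved in the comparison where Xcr1 did not pass. The list includes Id2, whose reporter divided the groups, so the Id2 difference followed from the sort. Of 12 measured, 10 were higher in pre-CD8 with the reporter than without it and none lower, and 6 to 9 were called when single arrays were left out, 6 of them without Id2-GFP+ pre-CD8 replicate 2. Cd226, an adhesion receptor, was 5.02 higher (adjusted p = 0.000161), and Clec9a, the receptor for dead cells, 4.29 (0.00102). Clec9a measured 9.78 to 10.55 in Id2-GFP+ pre-CD8, 5.47 to 6.28 in Id2-GFP- pre-CD8 and 8.92 to 9.65 across both CDP groups. Of all genes, 3.57% rose with the reporter in pre-CD8. In CDP, 5 of the 12 cDC1 genes rose with the reporter and none fell, where 0.597% of all genes rose. The list mean per array was 7.59 to 7.89 in Id2-GFP- CDP and 9.06 to 9.1 in Id2-GFP+ CDP.

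**Figure D3:**
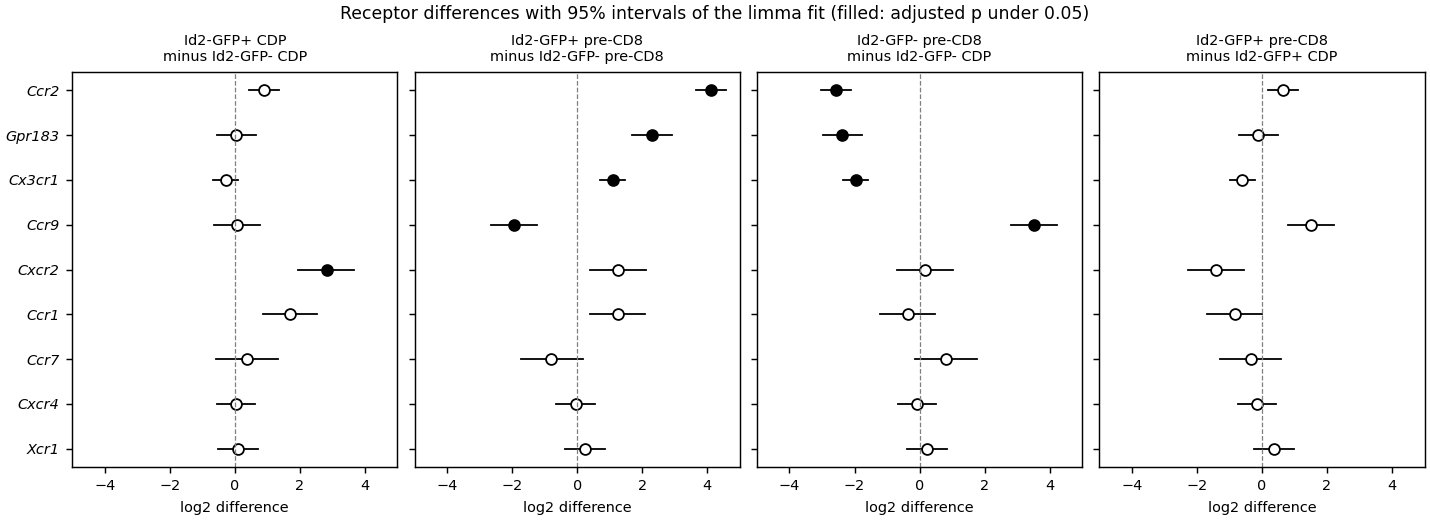
Log2 differences of the 9 receptors (points, with 95% intervals as lines; horizontal axis) in the 2 reporter and the 2 population comparisons, filled where the test was passed. In Id2-GFP+ against Id2-GFP- pre-CD8, Ccr2 is at 4.11, Gpr183 at 2.31, Cx3cr1 at 1.09 and Ccr9 at -1.94.

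Between the negative populations, 4 of 9 receptors differed, where 1.63% of all genes passed, 1.03% upward and 0.592% downward. From Id2-GFP- CDP to Id2-GFP- pre-CD8, Ccr9 rose by 3.51 ± 0.31 (adjusted p = 0.0017), while Ccr2 fell by 2.58 ± 0.20 (0.00126), Gpr183 fell by 2.37 ± 0.27 (0.00545) and Cx3cr1 fell by 1.97 ± 0.17 (0.0017). Within the brighter and dimmer arrays Ccr9 rose by 3.16 and 3.87 and the Ccr2 differences were -2.52 and -2.63. The array set block called 5 of 9 receptors, with 12.5% of all genes. The Gpr183 call ended when Id2-GFP- CDP replicate 2 was left out (adjusted p = 0.0587).

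Between the positive populations no receptor passed, and none of the 19938 genes did (0.00% called). At an unadjusted p of 0.05, 4 of the 9 receptors and 643 of all genes would have been counted, and a block for the array set passed these 4, with 2.08% of all genes. Ccr9 had the smallest p, with a difference of 1.51 ± 0.31 (Id2-GFP+ pre-CD8 minus Id2-GFP+ CDP, adjusted p = 0.404). Cxcr2 was at -1.41 ± 0.38, Ccr2 at 0.64 ± 0.20 and Cx3cr1 at -0.60 ± 0.17.

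Across reporter class and population together, the groups that shared neither gave further calls. Id2-GFP- pre-CD8 against Id2-GFP+ CDP called 6 of 9 receptors, with 4.89% of all genes (2.08% upward, 2.81% downward): Ccr9 was higher (3.45 ± 0.31) and Ccr2 (-3.46 ± 0.20), Cxcr2 (-2.66 ± 0.38), Gpr183 (-2.41 ± 0.27), Ccr1 (-2.07 ± 0.37) and Cx3cr1 (-1.69 ± 0.17) were lower. The Ccr1 call ended without Id2-GFP+ CDP replicate 2 (adjusted p = 0.0882) or Id2-GFP- pre-CD8 replicate 2 (0.0927). With the array set as a block 7 were called, with 21.9% of all genes. Id2-GFP+ pre-CD8 against Id2-GFP- CDP called 3 of 9, with 1.79% of all genes (1.39% upward, 0.401% downward): Ccr2 at 1.53 ± 0.20 (adjusted p = 0.00989), Ccr9 at 1.57 ± 0.31 (0.0481) and Cx3cr1 at -0.88 ± 0.17 (0.0458). The array set block called 5, with 15.8% of all genes. Ccr2 and Ccr9 lost this call without any single array of the 2 groups compared (adjusted p up to 0.106 and 0.33), and Cx3cr1 without any single array at all (up to 0.34). After quantile normalization Ccr9 and Cx3cr1 did not pass (0.057 and 0.0579).

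Several of these receptors are encoded side by side. In RefSeq order, Ccr9, Fyco1, Cxcr6, Xcr1, Ccr1, Ccr1l1, Ccr3 and Ccr2 follow one another on chromosome 9. With the reporter in pre-CD8 Ccr9 fell by 1.94 and Ccr2 rose by 4.11, whereas both were higher in Id2-GFP+ pre-CD8 against Id2-GFP- CDP (1.57 and 1.53). Ccr1 was highest in Id2-GFP+ CDP, and Xcr1 passed no comparison. Cx3cr1 lies elsewhere on chromosome 9, beside Ccr8.

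Genes with the most similar pattern were found by the root mean square distance over the 8 arrays, after each gene was centred on its mean, among 1802 genes whose group means spanned at least 1. For Ccr2 they were Ms4a4c (0.32), Fkbp1b (0.34) and Ifi30 (0.36, a thiol reductase of antigen processing). For Gpr183 they were Apba1 (0.20), Ms4a6c (0.25) and Rassf4 (0.28), and for Cx3cr1 B4galt4 (0.22), Ms4a6b (0.22) and Tifab (0.23). The nearest to Ccr9 was P2ry14 (0.35), a receptor for sugar nucleotides, before Gbp4 (0.40) and Sema3d (0.44). The nearest to Cxcr2 were Slfn1 (0.22) and Mmp9 (0.22), a gelatinase of neutrophil granules, before Slco4c1 (0.24). Those of Ccr1 were Tlr13 (0.26), Dstn (0.26) and Ankrd22 (0.27).

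Calls in this list and the chemotaxis lists after it stand beside 6.26% of all genes in pre-CD8 and 0.597% in CDP. With the array set as a block these shares were 24.2% and 7.85%. After quantile normalization 1305 of 19938 genes rose and 1262 fell in pre-CD8, and 198 and 9 in CDP. The share of the remaining chemokine receptors called in pre-CD8 was near that of all genes. Of 15 measured, 1 passed in pre-CD8 and none in CDP or between populations of the same reporter class, where 2, 1 and 2 had an unadjusted p below 0.05. Cxcr3, the receptor for Cxcl9 and Cxcl10, was 2.17 ± 0.33 higher in pre-CD8 with the reporter than without it (adjusted p = 0.00734). With the array set as a block the calls were 2 in CDP, 2 in pre-CD8 and 1 in each of the other two comparisons. The closest to passing in CDP was Ccr3, the eosinophil receptor, at 1.23 (adjusted p = 0.507).

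Among chemokines, Ccl6 stood out. It encodes a myeloid chemokine that binds Ccr1, and it was 1.69 ± 0.22 higher with the reporter in CDP and 2.98 ± 0.22 higher in pre-CD8 (adjusted p = 0.0183 and 0.000524). The CDP call was lost without any one of the 4 CDP arrays, at adjusted p-values from 0.0599 to 0.189. Of 34 ligands measured, Ccl6 was the only call in CDP, and Ccl6 and Cxcl16 were the only calls in pre-CD8, near the share of all genes. Cxcl16, a membrane-bound ligand of Cxcr6, was 0.78 higher (adjusted p = 0.037) and lost the call in 5 of 8 fits without 1 array, at up to 0.261. Genes of the Gpr183 ligand were 4, and Cyp27a1, a sterol hydroxylase, was 2.99 ± 0.28 higher in pre-CD8 with the reporter than without it (adjusted p = 0.000992), while the other 3 passed neither reporter comparison. After quantile normalization, or with the array set as a block, 2 of the 4 passed in pre-CD8.

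Of 20 receptors for other chemoattractants measured, 5 were higher and 1 lower with the reporter in pre-CD8 (8 and 7 under the array set block), and 2 higher in CDP, where 0 or 1 passed when single arrays were left out, and 5 under the array set block. P2ry10, a receptor for lysophosphatidylserine, was 3.31 higher in pre-CD8 (adjusted p = 0.000809) and Gpr35 2.40 higher (0.00138), whereas P2ry14 was -2.46 (0.00584). P2ry14 rose by 4.15 from Id2-GFP- CDP to Id2-GFP- pre-CD8 (0.0017), the same direction as Ccr9. In CDP, P2ry10 at 1.87 (adjusted p = 0.0335) and Gpr35 at 1.43 (0.0483) were called, but Gpr35 passed in none of the fits without 1 array (up to 0.506), and P2ry10 in 3 of 8 (up to 0.158).

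Downstream signalling genes were called in pre-CD8 and not in CDP. Of 24 G protein, arrestin and kinase genes, 6 rose with the reporter in pre-CD8, with a median of 0.44. The count was 2 to 5 without single arrays, and 2 without either Id2-GFP- pre-CD8 array or Id2-GFP+ pre-CD8 replicate 2. Grk3, a kinase that desensitises receptors, was 2.04 higher (adjusted p = 0.00419) and Rgs2, which speeds G protein inactivation, 1.86 (0.00759), the latter at 0.0519 without Id2-GFP- pre-CD8 replicate 2. In CDP none passed and 5 had an unadjusted p below 0.05. Quantile normalization called 2 in CDP and 11 in pre-CD8, the array set block 6 and 15, and the difference between CDP and pre-CD8 was not tested for these lists.

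Of 26 motility effectors, 3 rose and 1 fell with the reporter in pre-CD8, and none passed in CDP, where 3 had an unadjusted p below 0.05. Pik3r5, a regulatory subunit of the phosphoinositide kinase that G proteins switch on, was 1.88 higher in pre-CD8 (adjusted p = 0.00213) and 1.22 in CDP (0.0583). Rhoh, a small GTPase of blood cells, was -1.67 in pre-CD8 (0.00821), at 0.0586 without Id2-GFP- pre-CD8 replicate 1 and 0.0529 without Id2-GFP+ pre-CD8 replicate 2. The count was 1 to 4 without single arrays: 1 without Id2-GFP- pre-CD8 replicate 1 or Id2-GFP+ pre-CD8 replicate 2, and 2 without the other array of either group. Quantile normalization called 1 in CDP and 7 in pre-CD8. The array set block called 5 and 12, with 7.85% and 24.2% of all genes.

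**Figure D4:**
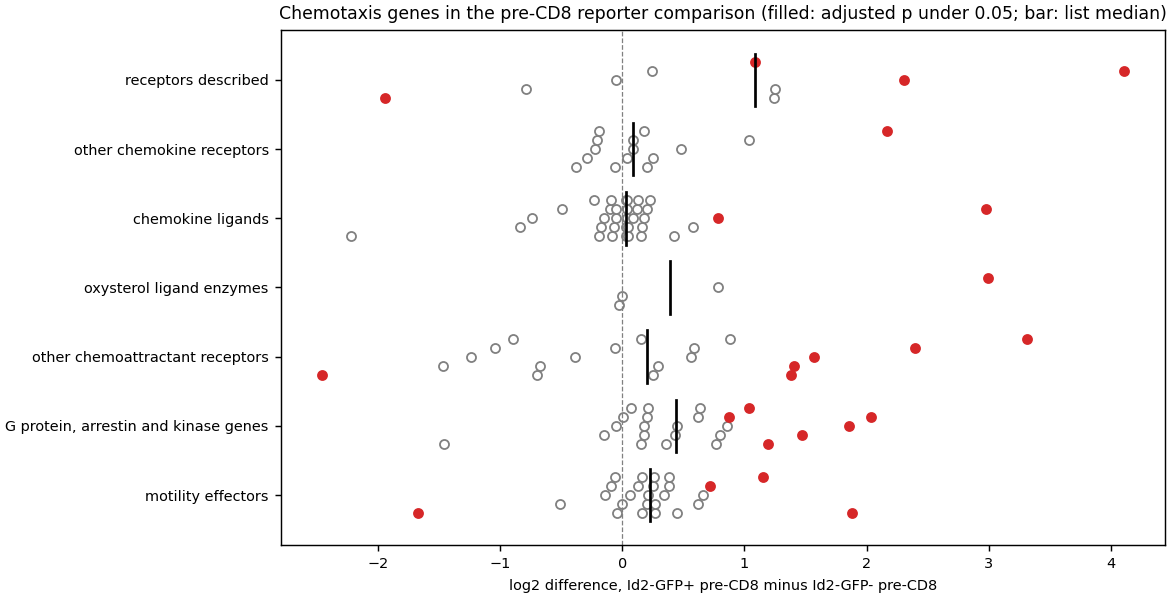
Log2 difference of each gene between Id2-GFP+ and Id2-GFP- pre-CD8 (horizontal axis; filled points passed the test) in the chemotaxis lists (vertical axis), with list medians as bars. The 9 receptors have a median of 1.09, the signalling genes 0.44 and the other chemokine receptors 0.09.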

How the data were processed

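Total RNA of 8 sorted bone marrow samples, 2 per group, was read on Affymetrix mouse gene arrays after labelling for small inputs, per the labels' protocols. The deposited table holds linear intensity for 28853 probe sets, made by the authors with RMA in Affymetrix Expression Console, per the submitters' processing notes, which give no versions or genome build. RMA normalises across arrays and compresses dim values, which understates their differences. Here log2 was taken, and probe sets with 1 gene symbol in the array annotation were kept, the brightest per gene (19938 genes). Groups were compared with limma 3.58.1 (R 4.3.3), fitting a mean per group over all 8 arrays with an intensity trend and Benjamini-Hochberg adjustment over all genes, two-sided, at 0.05. The number of arrays limits the precision. In simulated data for the CDP reporter comparison (19938 genes, 50 changed per size), 34%, 84%, 96% and 98% of log2 changes of 1, 2, 3 and 4 were recovered. The receptors, the gene lists and the rules for named and most similar genes were chosen with earlier results of these data known. Named were all receptors and, per list, the genes of largest difference past the threshold or the defining markers, except Csf1r and Il7r, picked after their values were seen. Alternatives were quantile normalization, leaving out dim genes, no intensity trend, the dimmest probe set, 32 added before log2, only the groups compared, blocks, and each array left out. Promoter windows came from RefSeq.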

Additional observations from a re-analysis of the deposited data

Results flagged for a closer look

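The reporter difference of Ccr2 differed between the populations: it was 0.89 in CDP and 4.11 in pre-CD8, and the interaction of 3.22 had an adjusted p of 0.0135 in limma. This did not pass without any one array other than Id2-GFP+ CDP replicate 1 (0.0514 to 0.0808). For Cx3cr1 the arrays of the reporter classes did not overlap and the sign was opposite in the 2 populations, -0.28 in CDP and 1.09 in pre-CD8. The test of that difference, 1.36, did not pass (adjusted p = 0.103).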

How the results depend on the processing

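Receptor counts moved with the array set as a block, which called 3 in CDP, 7 in pre-CD8, 4 between the positive populations, 5 for Id2-GFP+ pre-CD8 against Id2-GFP- CDP and 6 in the interaction, against 1, 4, 0, 3 and 1. A fit of the CDP arrays alone called 2. Leaving out dim genes gave 2 in the interaction. The replicate number as a block called 1 for Id2-GFP+ pre-CD8 against Id2-GFP- CDP and 0 in the interaction, and did not change the other counts. In this block Ccr2 in the interaction had an adjusted p of 0.0609. Deviations of same-numbered arrays correlated within a reporter class (0.713 and 0.690) and inversely across (-0.626 to -0.685). The numbers therefore do not pair the samples across reporter classes, but may within a class. Replicate 1 of Id2-GFP+ CDP correlated with replicate 1 of Id2-GFP+ pre-CD8 at 0.9918, above the 0.9838 to 0.989 between the arrays of a group. Crossing the numbers is the array set block.

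Without single arrays the counts were 0 to 1 in CDP, 3 to 5 in pre-CD8, 3 to 4 between the negative populations, 0 between the positive ones, 0 to 2 for Id2-GFP+ pre-CD8 against Id2-GFP- CDP, 5 to 6 for Id2-GFP- pre-CD8 against Id2-GFP+ CDP and 0 to 1 in the interaction.

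Only differences that were not called changed sign, mostly without single arrays. Cxcr4 ranged over -0.23 to 0.28 in CDP (-0.01 after quantile normalization), -0.31 to 0.20 in pre-CD8, -0.33 to 0.18 and -0.42 to 0.10 between the negative and the positive populations, -0.39 to 0.13 and -0.32 to 0.10 between unlike groups, and -0.34 to 0.18 in the interaction. Xcr1 ranged over -0.07 to 0.27 in CDP, -0.17 to 0.65 in pre-CD8, -0.04 to 0.79 between the positive populations, -0.06 to 0.32 for Id2-GFP- pre-CD8 against Id2-GFP+ CDP, and -0.27 to 0.56 in the interaction. Gpr183 ranged over -0.17 to 0.26 in CDP, -0.23 to 0.02 between the positive populations and -0.28 to 0.16 for Id2-GFP+ pre-CD8 against Id2-GFP- CDP. Ccr7 ranged over -0.81 to 0.11 and -0.42 to 0.50 in these last 2 comparisons, Ccr9 over -0.37 to 0.50 in CDP, and Ccr1 over -0.95 to 0.03 in the interaction. The causes were not tested.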
